A study of Schizosaccharomyces pombe with 6 samples.

Results

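The nuclear tRNA genes of the fission yeast Schizosaccharomyces pombe were examined for peaks of Hap2-GFP and Arp5-3HA. They were taken as all genes of biotype tRNA on chromosomes I, II and III of the ASM294v3 annotation, which gave 171 of 12606 genes. A single strain carrying both tags was cultured in YES, a rich medium, and chromatin sheared by sonication was immunoprecipitated with anti-GFP (Hap2-GFP, 2 samples) or with anti-HA (Arp5-3HA, 2 samples). Each protein has its own tag and antibody, so a difference between Hap2-GFP and Arp5-3HA cannot be told apart from one between tags or antibodies. Hap2 is an auxiliary subunit and Arp5 a core subunit of Ino80C, a complex that moves and remodels nucleosomes. The 2 input samples that the labels name were not analysed here, nor was any untagged strain. Whether the 2 samples of a protein are separate cultures is not in the labels, so p-values measure only the spread between these samples, which can be technical.

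Transfer RNA genes are transcribed by RNA polymerase III. Their promoter lies inside the gene, in the A box and the B box, which the factor TFIIIC binds, and TFIIIC brings TFIIIB to the DNA just upstream of the start. In S. pombe a TATA element upstream of the gene also takes part, and a run of T after the gene ends transcription. Clusters of tRNA genes flank S. pombe centromeres, where some act as boundaries between heterochromatin and the central domain that carries CENP-A.

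The tRNA genes were 71 to 102 bp long (median 73 bp), and 44 of them have an intron. Their 171 sequences comprise 69 different ones, of which 38 occur in a single copy and the most frequent in 9 copies. The B box letters GTTCGANNC were found on the coding strand of 131 genes (76.6%), against 0.165% of 167692 windows of 74 bp elsewhere, read on 1 strand. The looser letters GTTCNANNC, which include the first set and were added after the data were seen, occurred in 156 genes (91.2%) and in 1.20% of those windows. TATA, which reads the same on both strands, began within 60 bp upstream of 136 genes (79.5%), against 36.4% of all other genes. In 116 genes it began 38 to 28 bp upstream. A run of at least 4 T on the coding strand followed within 30 bp of the end of 164 genes (95.9%), against 31.0% of all other genes. These matches describe the letters only.

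The loci on which the results below turn are shown from ASM294v3, from 45 bases before the gene to 15 bases after it, on the coding strand. Capitals mark each TATA upstream, the looser B box letters within the gene and the first run of at least 4 T in the 15 bases after it. A run can lie beyond these bases, as at SPATRNAGLY.01, where it begins at base 16 after the gene. The first is the highest-ranked tRNA locus of all, the dimeric gene of *sup3* (tRNA-Ser) and SPATRNAMET.03 (tRNA-Met, identical to the initiator gene *imt07*), which lie 7 bp apart on the same strand (chrI:4265104-4265339, plus strand). The next 2 genes have the same sequence but differ in Arp5-3HA peaks: SPATRNAGLY.01 (chrI:1646277-1646407, minus strand) and SPCTRNAGLY.10 (chrIII:113701-113831, minus strand). SPATRNAMET.02 (chrI:1484964-1485106, minus strand) had the highest Hap2-GFP rank without an Arp5-3HA peak. A pair of tRNA-Trp genes also shares 1 sequence: SPBTRNATRP.02 (chrII:717031-717163, plus strand) had no Hap2-GFP peak and SPBTRNATRP.03 (chrII:1774815-1774947, plus strand) had peaks in all 4 lists. SPATRNAILE.03 (chrI:3768245-3768378, plus strand), among the inner genes of centromere 1, was the only tRNA gene without a peak in any list.
sup3 with SPATRNAMET.03: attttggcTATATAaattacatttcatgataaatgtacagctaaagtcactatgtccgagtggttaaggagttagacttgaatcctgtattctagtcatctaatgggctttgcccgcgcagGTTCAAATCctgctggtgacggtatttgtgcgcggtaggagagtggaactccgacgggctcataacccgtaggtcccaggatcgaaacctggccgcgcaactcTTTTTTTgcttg
SPATRNAGLY.01: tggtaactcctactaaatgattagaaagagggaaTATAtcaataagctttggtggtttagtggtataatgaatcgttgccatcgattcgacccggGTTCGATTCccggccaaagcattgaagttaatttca
SPCTRNAGLY.10: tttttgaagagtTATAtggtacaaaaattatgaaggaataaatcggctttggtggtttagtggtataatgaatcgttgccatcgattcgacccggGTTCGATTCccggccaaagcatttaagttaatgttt
SPATRNAMET.02: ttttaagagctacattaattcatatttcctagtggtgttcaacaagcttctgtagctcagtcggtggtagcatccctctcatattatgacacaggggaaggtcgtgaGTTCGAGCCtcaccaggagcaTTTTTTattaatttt
SPBTRNATRP.02: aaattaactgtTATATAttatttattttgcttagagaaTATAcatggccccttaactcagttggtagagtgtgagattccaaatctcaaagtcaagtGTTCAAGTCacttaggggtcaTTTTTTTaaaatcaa
SPBTRNATRP.03: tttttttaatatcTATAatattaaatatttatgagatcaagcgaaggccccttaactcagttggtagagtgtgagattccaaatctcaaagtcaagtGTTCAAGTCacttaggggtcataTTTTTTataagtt
SPATRNAILE.03: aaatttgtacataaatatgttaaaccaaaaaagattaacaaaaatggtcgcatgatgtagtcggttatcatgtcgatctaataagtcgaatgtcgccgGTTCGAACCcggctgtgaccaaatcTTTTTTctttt

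The authors called peaks in each ChIP sample separately. On chromosomes I to III the Hap2-GFP lists hold 3758 and 4259 peaks and the Arp5-3HA lists 4206 and 4277. Scores have no stated scale and were used only as percentiles within a list, with the highest peak near 100. Read depth is unknown from the lists.

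Nearly every tRNA gene lay under a Hap2-GFP peak, and most also lay under an Arp5-3HA peak. Without an untagged strain, such peaks cannot be told apart from signal that does not depend on the tagged protein. A peak covered at least 1 bp of 167 (97.7%) and 165 (96.5%) tRNA genes in Hap2-GFP replicates 1 and 2, against 34.1% and 37.8% of all genes. In Arp5-3HA replicates 1 and 2 a peak covered 139 (81.3%) and 148 (86.5%) tRNA genes, against 35.6% and 36.6% of all genes. The 95% Wilson intervals, which cover counting error only, were 94.1 to 99.1% and 92.6 to 98.4% for Hap2-GFP and 74.8 to 86.4% and 80.6 to 90.9% for Arp5-3HA. The tRNA genes were covered more often although they are much shorter than genes in general, whose median length was 1045 bp.

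Every tRNA gene under a peak had its first base under that peak, so the counts were the same when the peak had to cover the gene start. Over all genes the share with a covered first base was 13.6% and 15.0% in the Hap2-GFP lists and 8.12% and 8.71% in the Arp5-3HA lists. Among 5113 protein-coding genes it was 11.8% and 13.8% for Hap2-GFP and 2.05% and 2.82% for Arp5-3HA. The first bases of coding genes were rarely under an Arp5-3HA peak, whereas those of most tRNA genes were.

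A peak in both Hap2-GFP lists was found at 163 tRNA genes (95.3%), against 26.7% of all genes. A peak in both Arp5-3HA lists was found at 127 (74.3%), against 26.8% of all genes. With the first base as the measure the shares over all genes were 9.58% and 5.23%. All 4 lists had a peak at 123 tRNA genes (71.9%), against 17.1% of all genes. Of the 44 tRNA genes not covered in both Arp5-3HA lists, 33 were covered in 1 and 11 in neither. No tRNA gene had a peak in both Arp5-3HA lists and in neither Hap2-GFP list. That count could not exceed 2, the number of tRNA genes with no Hap2-GFP peak. Another 9 had a peak in both Hap2-GFP lists and in neither Arp5-3HA list. Shares of all genes with these combinations are not given here, so neither count is read as particular to tRNA genes.

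The mean share of tRNA genes with a peak was 97.1% ± 0.827 for Hap2-GFP and 83.9% ± 3.72 for Arp5-3HA (SD, n = 2 lists each). The difference of 13.2 percentage points was larger than the spread between replicates, and the lists of the proteins did not overlap. An exact permutation test over the 4 lists gave a two-sided p = 0.333, the smallest that 2 lists against 2 can give. The difference was 16.4 points within the lists numbered 1 and 9.94 points within those numbered 2.

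**Figure D1:**
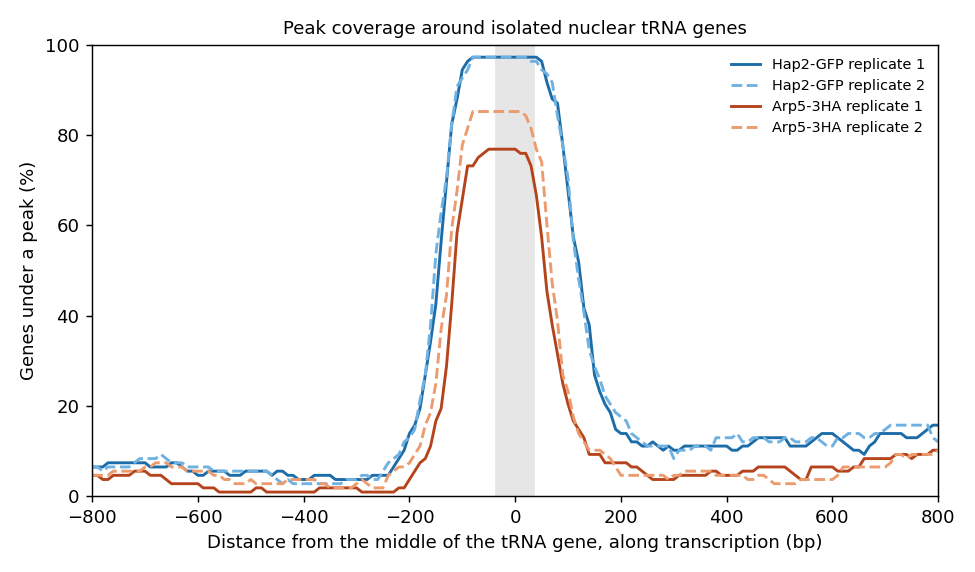
Share of the 108 isolated tRNA genes under a peak (y axis, %) by distance from the middle of the gene along the direction of transcription (x axis, bp), for the 4 lists. The grey band marks about the extent of a gene. Coverage was highest over the gene, at 97.2% in both Hap2-GFP lists and at 76.9% and 85.2% in the Arp5-3HA lists, and 200 bp upstream of the middle it was 13.9% and 13.0% for Hap2-GFP and 3.70% and 7.41% for Arp5-3HA.

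Base composition moved with this result. tRNA genes are rich in G and C (median 54.2%), and outside them peaks of all 4 lists were also more frequent in GC-rich windows. In windows of 100 bp with 40 to 50% GC, the 126 centred on a tRNA gene met a Hap2-GFP peak in 98.4% and 96.8% of cases, against 20.03% and 22.5% of 36621 windows away from tRNA genes. For Arp5-3HA these shares were 83.3% and 89.7% at tRNA genes, against 24.8% and 25.4% elsewhere. In windows with 50 to 60% GC, the 42 at tRNA genes met a Hap2-GFP peak in 97.6% of cases in replicate 1 and in every case in replicate 2, and an Arp5-3HA peak in 78.6% and 78.6%. The 2853 such windows elsewhere did so in 52.3% and 56.5% for Hap2-GFP and in 55.0% and 57.2% for Arp5-3HA. The share was higher at tRNA genes in both ranges of GC.

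Peaks at tRNA genes ranked high in every list. The 167 and 165 genes covered in the Hap2-GFP lists lay under 148 and 147 different peaks, and the 139 and 148 covered in the Arp5-3HA lists under 123 and 134. These made up 3.94% and 3.45% of all Hap2-GFP peaks and 2.92% and 3.13% of all Arp5-3HA peaks. Among them, 82 (55.4%) and 76 (51.7%) in the Hap2-GFP lists were above the 90th percentile by score, against 9.71% and 10.1% of all peaks. In the Arp5-3HA lists 49 (39.8%) and 54 (40.3%) were, against 9.80% and 10.4% of all peaks. The median percentile per gene was 91.2 and 89.6 for Hap2-GFP and 86.3 and 86.9 for Arp5-3HA. The means of these medians differed by 3.77 percentile points, with an exact permutation p = 0.333, again the smallest possible with 4 lists.

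Hap2-GFP peaks at tRNA genes were wider than Arp5-3HA peaks. The median width was 290 bp in both Hap2-GFP lists, where all peaks had a median of 240 bp. It was 200 and 210 bp in the Arp5-3HA lists, where all peaks had a median of 230 bp. So tRNA peaks were wider than the usual Hap2-GFP peak and narrower than the usual Arp5-3HA peak in each replicate. The difference of 85.0 bp between the proteins exceeded the spread between replicates (exact permutation p = 0.333, the smallest possible). At isolated genes, those with no other tRNA gene within 1000 bp, the medians were the same, namely 290 and 290 bp for Hap2-GFP and 200 and 210 bp for Arp5-3HA. There the median peak began 107 and 114 bp upstream of the gene start for Hap2-GFP and 86.0 and 94.0 bp for Arp5-3HA. It reached 82.0 and 81.0 bp past the gene end for Hap2-GFP and 31.0 and 35.5 bp for Arp5-3HA. The larger width of Hap2-GFP peaks thus lay more on the downstream side.

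Summits lay close to the start of the tRNA gene. Over all covered genes the median summit was 31.0 and 32.5 bp upstream of the middle of the gene in the Hap2-GFP lists and 39.5 and 41.2 bp upstream in the Arp5-3HA lists. Counted from the gene start, the median was 10 and 6 bp after it for Hap2-GFP and 2 and 3 bp before it for Arp5-3HA. The Hap2-GFP median was 8.62 bp further downstream (exact permutation p = 0.333, the smallest possible). Nearly all summits lie on a grid of 10 bp, so this difference is under 1 step of it. In the Hap2-GFP lists 67 and 72 genes had the summit upstream of the start, 80 and 72 within the gene and 20 and 21 downstream of it. In the Arp5-3HA lists 74 and 79 had it upstream, 52 and 52 within and 13 and 17 downstream. At isolated genes downstream summits were few, 6 and 8 for Hap2-GFP and 3 and 6 for Arp5-3HA.

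**Figure D2:**
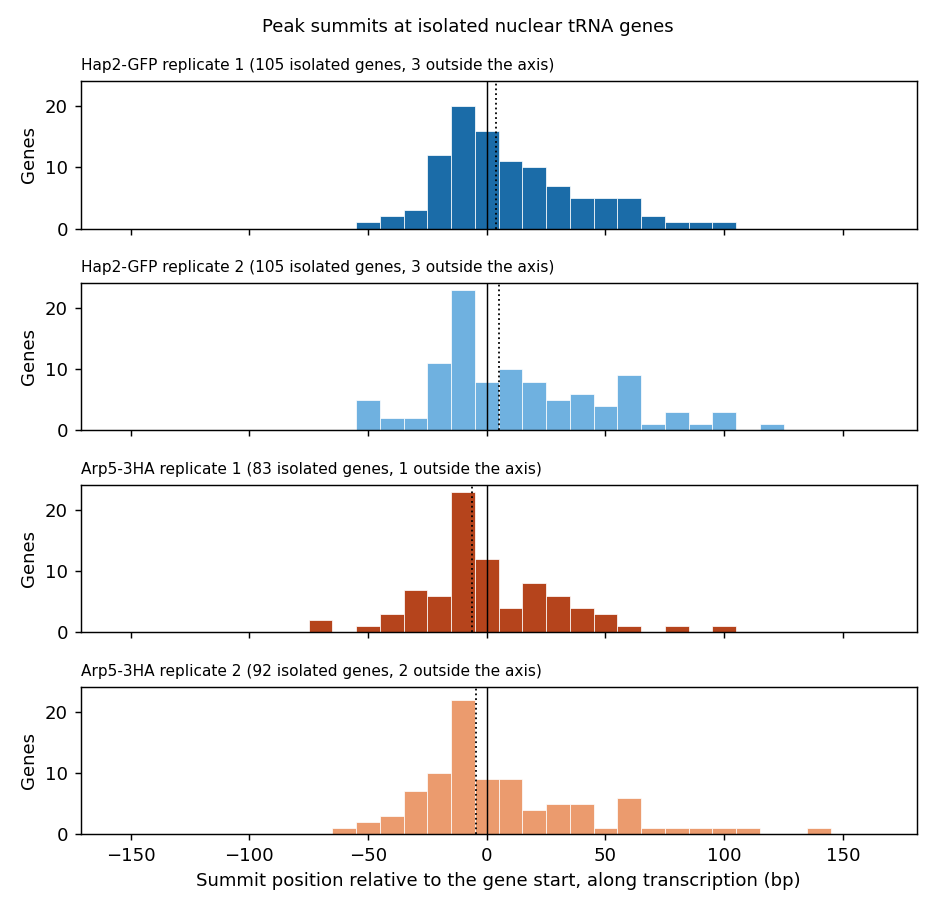
Number of isolated tRNA genes (y axis) by position of the peak summit relative to the gene start along transcription (x axis, bp, in steps of 10 bp), in the 4 lists. The solid line marks the gene start and the dotted line the median, which was 4 and 5 bp after the start for Hap2-GFP and 6 and 4.50 bp before it for Arp5-3HA.

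Lists with the same replicate number resembled each other more at tRNA genes than lists of the same protein did. At tRNA genes covered in both lists, the summits of Hap2-GFP replicate 1 and Arp5-3HA replicate 1 were a median of 2.50 bp apart (124 pairs of peaks), and those of Hap2-GFP replicate 2 and Arp5-3HA replicate 2 were 10 bp apart (129 pairs). The 2 Hap2-GFP lists were 30 bp apart (146 pairs) and the 2 Arp5-3HA lists 25 bp apart (113 pairs). Summits within 30 bp of each other made up 82.3% and 77.5% of pairs between proteins with the same number, against 54.1% between the Hap2-GFP lists and 58.4% between the Arp5-3HA lists. Over all overlapping peaks of the genome the median distance was 30 and 40 bp between proteins with the same number, against 80 bp between the Hap2-GFP lists and 110 bp between the Arp5-3HA lists.

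The order of tRNA peaks by score also agreed best between lists of the same number. Spearman's rho of the percentiles across tRNA peaks was 0.72 and 0.70 between proteins with the same number, 0.56 between the Hap2-GFP lists and 0.43 between the Arp5-3HA lists. Between proteins with different numbers it was 0.39 (Hap2-GFP replicate 1 with Arp5-3HA replicate 2) and 0.32 (Hap2-GFP replicate 2 with Arp5-3HA replicate 1). Over all overlapping peaks of the genome rho was 0.55 and 0.54 between proteins with the same number, 0.55 between the Hap2-GFP lists and 0.41 between the Arp5-3HA lists, so there the Hap2-GFP lists agreed in rank as well as lists of the same number did. These values are across genes or peaks of the same libraries, which are not independent replicates, and genes with shared sequence can share reads. The labels do not say what a number stands for. The names of the deposited lists give those of the same number a code in common, whose meaning is not stated. What such lists share was not tested. The numbers also bear on the comparison of the proteins, since each protein has 1 list of each number.

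**Figure D3:**
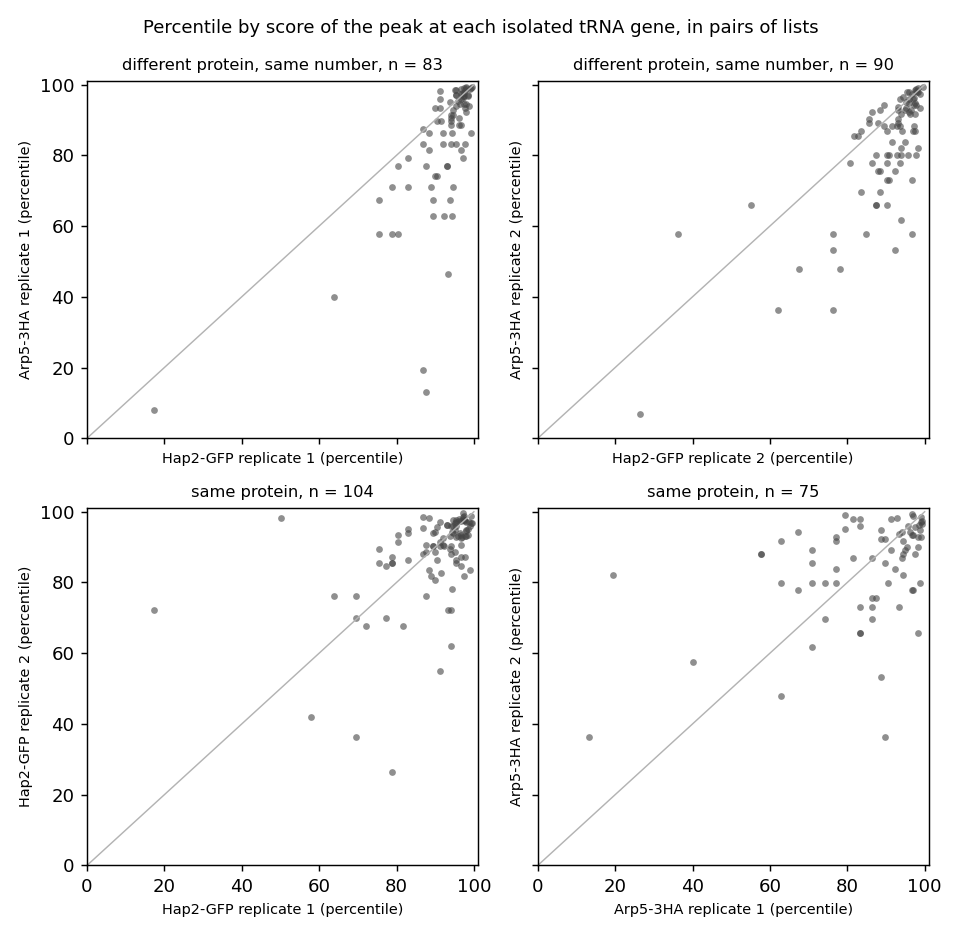
Percentile by score (both axes, 100 the highest) of the peaks at isolated tRNA genes, in 4 pairs of lists. Each point is a gene covered in both lists and the line marks equality. The upper panels pair Hap2-GFP with Arp5-3HA of the same replicate number (n = 83 and 90, rho 0.73 and 0.69), and the lower panels pair the replicates of Hap2-GFP (n = 104, rho 0.51) and of Arp5-3HA (n = 75, rho 0.42), whose points spread more widely.

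The genes without Arp5-3HA peaks had lower Hap2-GFP ranks. Among genes with a peak in both Hap2-GFP lists, the mean Hap2-GFP percentile had a median of 70.4 in the 9 genes covered in neither Arp5-3HA list. It was 85.3 in the 31 genes covered in 1 Arp5-3HA list and 91.4 in the 123 covered in both. The ranges overlapped, at 49.9 to 93.7, 36.3 to 95.9 and 65.6 to 99.4. The highest-ranked Hap2-GFP peak with no Arp5-3HA peak was at SPATRNAMET.02, at percentiles 96.6 and 90.7 and widths of 250 and 230 bp. The next were SPATRNATHR.01 (82.9 and 86.5), SPBTRNATYR.04 (82.9 and 87.3), SPCTRNAGLY.10 (77.2 and 70.0) and SPATRNAVAL.04 (69.6 and 70.0). SPCTRNAGLY.10 has the same sequence as SPATRNAGLY.01, which was at percentiles 97.5 and 97.6 in the Hap2-GFP lists and 99.0 and 98.5 in the Arp5-3HA lists. As printed above, the TATA of SPCTRNAGLY.10 began 33 bp and that of SPATRNAGLY.01 11 bp upstream of the gene. A further copy of this sequence, SPATRNAGLY.02, had its TATA 35 bp upstream and a peak in all 4 lists. Its percentiles were 87.6 and 76.2 for Hap2-GFP but only 13.2 and 36.2 for Arp5-3HA. Of the 8 copies, 6 had a peak in both Arp5-3HA lists, and a relation to the TATA position was not tested.

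Ranked by the lowest of its 4 percentiles, the highest locus was the dimer of *sup3* and SPATRNAMET.03, a serine tRNA gene followed by an initiator tRNA gene. Its single peak was at percentiles 99.2 and 99.7 in the Hap2-GFP lists and 98.5 and 98.4 in the Arp5-3HA lists, with widths of 420 and 430 bp for Hap2-GFP and 300 and 390 bp for Arp5-3HA. The summits lay 17 and 7 bp after the start of *sup3* for Hap2-GFP and likewise 17 and 7 bp after it for Arp5-3HA, so they fell on the same base in lists of the same number. The next loci were SPATRNAGLY.01 (lowest percentile 97.5), SPBTRNAGLY.09 (97.2), SPBTRNAHIS.02 (96.9), SPATRNAVAL.02 (96.7), SPATRNAALA.06 (96.2), SPBTRNASER.06 (95.5), SPATRNAASP.01 (94.8), SPATRNAILE.02 (94.5) and SPBTRNAASP.04 (94.2). All 10 lay on chromosome arms, and 9 of them were isolated genes. Of all 171 tRNA genes, 122 lay on arms and 108 were isolated. Genes under a merged peak were counted together as a single locus, which lowers the number of clustered entries.

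The other dimers were covered as well. *sup9* with *imt07* on chromosome III (90.6 and 87.3 for Hap2-GFP, 77.0 and 69.7 for Arp5-3HA) and SPATRNASER.01 with SPATRNAMET.01 on chromosome I (97.0 and 99.8 for Hap2-GFP, 84.8 and 98.4 for Arp5-3HA) are further serine and methionine pairs 7 bp apart. SPBTRNAASN.01 and SPBTRNAMET.05, 5 bp apart on chromosome II, also had a peak in all 4 lists.

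The 2 genes with no peak in either Hap2-GFP list were SPATRNAILE.03 and SPBTRNATRP.02. SPBTRNATRP.02 lies on the arm of chromosome II and had a peak in Arp5-3HA replicate 2 alone, 300 bp wide at percentile 65.8. Its identical copy SPBTRNATRP.03 was at 78.8 and 85.6 for Hap2-GFP and 70.9 and 89.2 for Arp5-3HA. The remaining copy, SPATRNATRP.01, had a peak in Hap2-GFP replicate 1 (80.5) and in Arp5-3HA replicates 1 and 2 (57.8 and 88.1). The tRNA-Trp genes thus had a peak in both Hap2-GFP lists at 1 of 3 genes, the lowest share of any amino acid. Among all 31 sets of identical genes, coverage in both Hap2-GFP lists differed between copies in 6 and coverage in both Arp5-3HA lists in 23.

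By amino acid, every gene had a peak in both Hap2-GFP lists for 14 of 20 amino acids and in both Arp5-3HA lists for 3. Those 3 were alanine (12 genes), asparagine (6) and cysteine (3). Each of the 20 amino acids had at least 1 gene in both Arp5-3HA lists. The share in both Arp5-3HA lists was lowest for glutamate (5 of 10 genes) and tyrosine (2 of 4), for which Hap2-GFP covered 9 of 10 and 4 of 4. Serine genes were covered in both Hap2-GFP lists at 13 of 13 and in both Arp5-3HA lists at 12 of 13. With 3 to 13 genes an amino acid, these shares are imprecise and no difference between amino acids was tested.

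**Figure D4:**
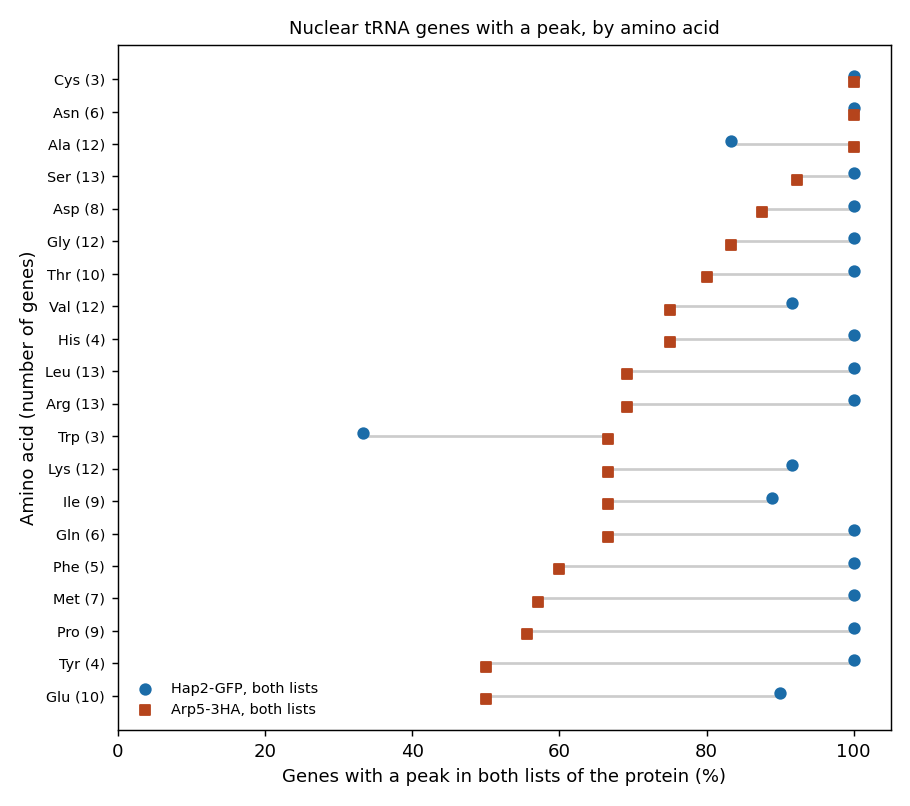
Share of tRNA genes with a peak in both lists of a protein (x axis, %), by amino acid with the number of genes (y axis), for Hap2-GFP (circles) and Arp5-3HA (squares). Hap2-GFP was above Arp5-3HA for 16 of the 20 amino acids, equal for asparagine and cysteine and below for alanine and tryptophan.

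Of the tRNA genes, 63 lay in 17 clusters and 108 were isolated. Clustered genes had a peak in both Hap2-GFP lists at 59 of 63 (93.7%), against 104 of 108 isolated genes (96.3%). For Arp5-3HA it was 52 of 63 clustered (82.5%, Wilson 71.4 to 90%), against 75 of 108 isolated genes (69.4%, 60.2 to 77.3%). In single lists clustered genes exceeded isolated ones by 12.0 and 3.70 percentage points for Arp5-3HA, and by 1.19 and -1.98 points for Hap2-GFP. Median percentiles, however, were lower at clustered genes in every list. They were 87.9 and 86.5 against 93.7 and 92.4 for Hap2-GFP, and 84.8 and 85.5 against 89.7 and 86.9 for Arp5-3HA. Of the clustered genes 40 were centromeric, by the limit of 10 kb defined below. This limit ran through the cluster of 12 genes at centromere 2 and that of 7 genes at centromere 3. Some clustered arm genes thus belong to clusters that flank a centromere. On the arms, 20 of 23 clustered genes had a peak in both Arp5-3HA lists, against 73 of 99 isolated genes. Neighbouring genes under 200 bp apart nearly always lay under 1 common peak (16 of 16 and 16 of 16 pairs for Hap2-GFP, 14 of 15 and 14 of 16 for Arp5-3HA). Pairs 200 to 1000 bp apart mostly had a peak each, with 3 of 29 and 2 of 27 under a common peak for Hap2-GFP and 2 of 23 and 0 of 21 for Arp5-3HA. For genes that share a peak, presence and rank are therefore not separate observations.

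The widest peak over an isolated gene was 970 bp in Hap2-GFP replicate 1 (SPBTRNAPRO.07), 1200 bp in Hap2-GFP replicate 2 (SPBTRNAGLU.05), 630 bp in Arp5-3HA replicate 1 (SPCTRNATHR.10) and 590 bp in Arp5-3HA replicate 2 (SPBTRNATRP.03). The wide peak was not found in the other replicate at SPBTRNAPRO.07 (330 bp in Hap2-GFP replicate 2) or at SPBTRNAGLU.05 (240 bp in Hap2-GFP replicate 1). At SPCTRNATHR.10 the Arp5-3HA peaks were 630 and 240 bp wide, and the Hap2-GFP peaks 610 and 580 bp.

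Centromeric tRNA genes were those within 10 kb of the outermost matches of the study's central domain and *dg* primers, which gave 7 genes at centromere 1, 25 at centromere 2 and 17 at centromere 3. A peak in both Hap2-GFP lists was found at 43 of these 49 (87.8%, Wilson 75.8 to 94.3%), against 120 of 122 arm genes (98.4%, 94.2 to 99.5%). For both Arp5-3HA lists it was 34 of 49 (69.4%, 55.5 to 80.5%), against 93 of 122 arm genes (76.2%, 67.9 to 82.9%). Of the centromeric genes, 32 of 40 clustered and 2 of 9 isolated ones were covered in both Arp5-3HA lists. In single lists centromeric minus arm genes gave -5.30 and -6.52 percentage points for Hap2-GFP and -2.38 and -9.75 points for Arp5-3HA, whose contrast thus rested mostly on replicate 2. Centromeric peaks also ranked lower, with median percentiles of 84.6 and 82.7 at centromeric genes against 93.7 and 92.8 at arm genes for Hap2-GFP. For Arp5-3HA these were 81.5 and 83.8 at centromeric genes against 89.7 and 88.1 at arm genes. Of the 6 centromeric genes not covered in both Hap2-GFP lists, 5 were among the 23 inner genes, between the innermost *dg* matches, and 4 of these 5 lay at centromere 1. Among inner genes, 2 of 6 at centromere 1, 5 of 6 at centromere 2 and 11 of 11 at centromere 3 were covered in both Hap2-GFP lists, as were 25 of 26 outer genes. The median percentile of outer genes was 86.0 and 85.6 for Hap2-GFP and 81.5 and 90.1 for Arp5-3HA. Only the value in Arp5-3HA replicate 2 was above that of arm genes. This split was made after the data were seen.

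Centromere 1 had the fewest tRNA genes and the poorest coverage, with no gene in all 4 lists. Its 6 inner genes are 3 mirror pairs around the central domain. SPATRNAALA.04 and SPATRNAALA.05 had peaks in Hap2-GFP replicate 1 (82.9 and 50.1) and in Arp5-3HA replicates 1 (77.0 and 32.7) and 2 (30.1 and 42.1), but not in Hap2-GFP replicate 2. SPATRNAGLU.03 had peaks in Hap2-GFP replicate 2 (76.2) and Arp5-3HA replicate 2 (72.9), and its mirror copy SPATRNAGLU.04 in Hap2-GFP replicates 1 and 2 (69.6 and 51.0). SPATRNAILE.04 had peaks in Hap2-GFP replicates 1 and 2 (17.3 and 72.2) and Arp5-3HA replicate 1 (7.88), 150 to 160 bp wide, and its mirror copy SPATRNAILE.03 had none. The outer gene SPATRNAPHE.02 was at 81.8 and 67.6 for Hap2-GFP and had a peak in Arp5-3HA replicate 2 (47.9).

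At centromere 2, 19 of 25 tRNA genes had a peak in all 4 lists. The other 6 were SPBTRNALYS.07, SPBTRNATYR.03, SPBTRNAARG.07 and SPBTRNAVAL.07, covered in both Hap2-GFP lists and 1 Arp5-3HA list, SPBTRNAVAL.06, covered in 1 Hap2-GFP list and both Arp5-3HA lists, and SPBTRNAGLU.06, covered in both Hap2-GFP lists only. The outer genes stand in clusters of 12 genes, 10 of them in the centromeric zone, and 9 genes. The inner genes SPBTRNAILE.06 with SPBTRNAALA.09, and their mirror copies SPBTRNAILE.07 with SPBTRNAALA.10, shared a peak of 340 to 400 bp in every list. At centromere 3, 12 of 17 had a peak in all 4 lists. The clusters of SPCTRNAASP.06, SPCTRNAARG.12, SPCTRNAVAL.09 and SPCTRNATHR.08, and of their mirror copies, were covered throughout, in 1 list each by a single peak of 910 bp. Of the other 5, SPCTRNALEU.12 and SPCTRNALEU.13 lacked a peak in Arp5-3HA replicate 1 and SPCTRNALEU.11 in Arp5-3HA replicate 2. SPCTRNALYS.10 was covered in both Hap2-GFP lists only (57.9 and 42.0), and its identical copy SPCTRNALYS.11 in Hap2-GFP replicate 2 only (36.3).

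**Figure D5:**
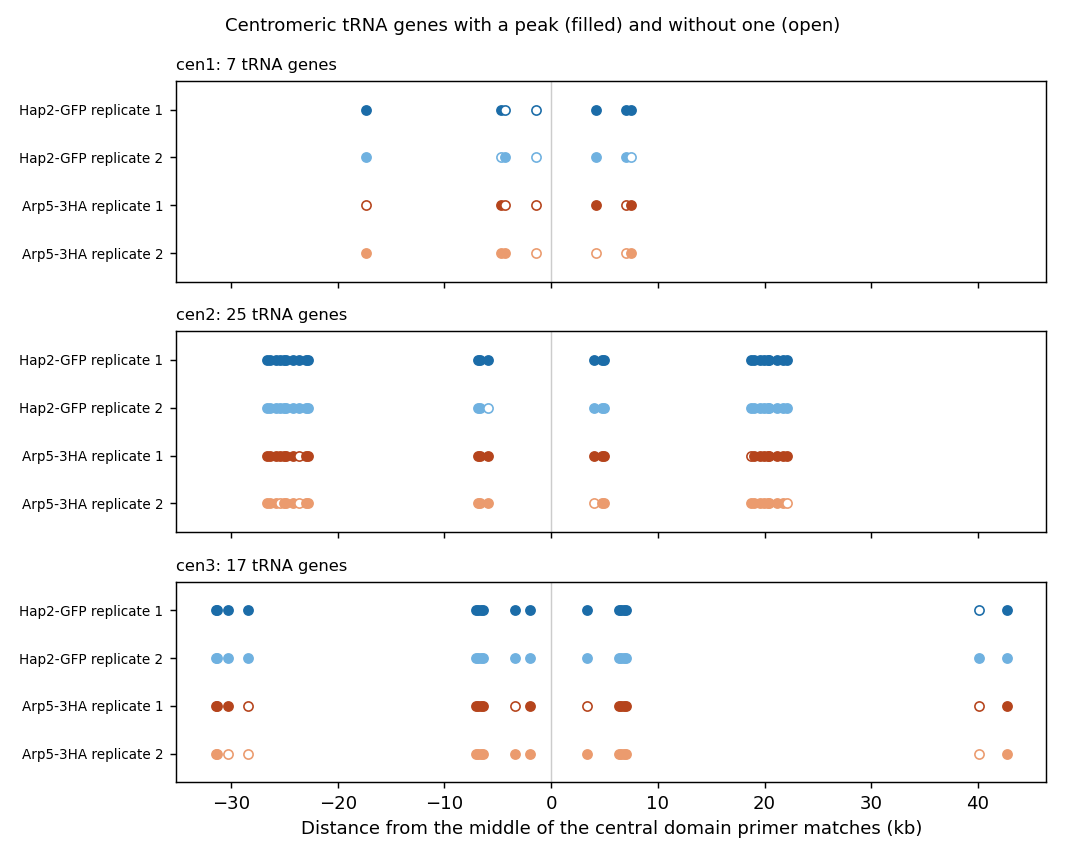
The tRNA genes of each centromere (panels) by distance from the middle of the central domain primer matches (x axis, kb), with 1 row for each list. Filled circles are genes with a peak and open circles genes without one. Open circles were densest at centromere 1, where 3 of 7 genes had a peak in both Hap2-GFP lists and 2 of 7 in both Arp5-3HA lists.

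Repeated sequence moved with centromeric location. Of the 23 inner genes 22 had no 50 bp stretch, within the gene and 150 bp on each side, that was unique on chromosomes I to III, and 34 of all 171 tRNA genes had none. The 11 mirror pairs were identical over the gene and those flanks, so reads from there cannot be given to 1 copy by sequence. Even so, 3 pairs had peaks in different lists, and how the authors placed such reads is not given in the sources used here. Where at least 80% of the stretches were unique, a peak in both lists was found at 118 of 120 genes for Hap2-GFP and at 88 of 120 for Arp5-3HA. Where under 20% were, it was found at 31 of 37 for Hap2-GFP and 27 of 37 for Arp5-3HA. The part of shared sequence in the centromeric values was not tested further.

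Arp5-3HA coverage was also set against introns, promoter letters and neighbouring genes. Genes with an intron had a peak in both Hap2-GFP lists at 42 of 44 and in both Arp5-3HA lists at 28 of 44 (63.6%, Wilson 48.9 to 76.2%). Genes without one had it at 121 of 127 for Hap2-GFP and 99 of 127 for Arp5-3HA (78.0%, 70.0 to 84.3%). With the B box letters GTTCGANNC, 127 of 131 genes were covered in both Hap2-GFP lists and 92 of 131 in both Arp5-3HA lists (70.2%, 61.9 to 77.4%). Without them the counts were 36 of 40 and 35 of 40 (87.5%, 73.9 to 94.5%). With TATA upstream they were 129 of 136 for Hap2-GFP and 98 of 136 for Arp5-3HA, and without it 34 of 35 and 29 of 35. In single Arp5-3HA lists the share with TATA was 79.4% and 86.8%, against 88.6% and 85.7% without it, so the direction differed between replicates. The intervals overlapped in each contrast, and none was tested.

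A protein-coding gene began within 500 bp of 33 tRNA genes. All 33 had a peak in both Hap2-GFP lists and 20 in both Arp5-3HA lists (60.6%, Wilson 43.7 to 75.3%). Of the 138 with no coding start that near, 130 and 107 did (77.5% for Arp5-3HA, 69.9 to 83.7%). In single Arp5-3HA lists the share near a coding start was 78.8% and 75.8%, against 81.9% and 89.1% for the other tRNA genes, so the contrast was small in replicate 1. The intervals overlapped and no test was made.

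Overlapping peaks of the replicates merge into 2198 Hap2-GFP regions and 2033 Arp5-3HA regions found in both lists. Of these, 143 Hap2-GFP regions (6.51%) and 112 Arp5-3HA regions (5.51%) overlapped a tRNA gene. Of the 503 Hap2-GFP regions centred outside coding genes and their promoters (from 500 bp before a coding start to 100 bp after it), 115 (22.9%) overlapped a tRNA gene. For Arp5-3HA it was 96 of 211 (45.5%). Of regions centred in such promoters, 26 of 611 (4.26%) for Hap2-GFP and 15 of 79 (19.0%) for Arp5-3HA overlapped a tRNA gene.

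Other genes transcribed by RNA polymerase III were covered in a similar way. Of the 36 annotated genes for 5S rRNA, a component of the large ribosomal subunit, 34 and 36 had a peak in the Hap2-GFP lists. In the Arp5-3HA lists 26 and 32 of them did. Both Hap2-GFP lists covered 34 of the 36, against 95.3% of tRNA genes and 26.7% of all genes. Both Arp5-3HA lists covered 24 of the 36, against 74.3% of tRNA genes and 26.8% of all genes. *srp7*, the RNA of the signal recognition particle, had a peak in all 4 lists, at percentiles 99.2 and 97.3 for Hap2-GFP and 98.5 and 93.7 for Arp5-3HA. *snu6*, the U6 RNA of the spliceosome, was at 94.3 and 98.2 for Hap2-GFP and had a peak in Arp5-3HA replicate 2 (96.2) but not in replicate 1.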

How the data were processed

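ChIP-seq peak lists of Hap2-GFP and Arp5-3HA (2 samples each) were used, grouped by title. Each list was called by the authors on 1 sample. Tools listed in the submitters' processing notes were MACS2 2.1.2, BWA 0.7.17, Trimmomatic 0.36 and deepTools. For thresholds, the input of each list, the placing of shared reads and the genome build, the entry is: not given in the sources used here. Deposited lists hold other values, namely start, end and summit positions, and a whole-number score deposited without its scale. The score was turned into percentiles within a list. Fields for fold, p and q hold 0. Read depth, and so the precision it gives, is unknown.

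Genes and sequence are from RefSeq ASM294v3. Its chromosome III ends at 2452883, as does the last peak there in each list. Peaks on other sequences were left out. A gene was covered where a peak overlapped at least 1 bp. Positions count from 1 and distances run along transcription from the gene middle or start. Amino acids follow the systematic gene names. For 5 genes named Asp the annotated product is tRNA-Asn, although 4 of them are identical to genes annotated as tRNA-Asp. The fifth, SPBTRNAASP.05, is the reverse complement of that sequence on its annotated strand, which was kept.

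Proteins were compared by an exact two-sided permutation test over the 4 lists, which cannot give a p below 0.333. Intervals are 95% Wilson and cover counting error only. Alternatives were peak and gene overlap rules, stricter score limits, single replicates, other cluster and centromere distances and a replicate block. The measures were tested on simulated peaks planted at known genes. Named genes are those without a Hap2-GFP peak or any peak, the 10 highest loci by their lowest percentile, all centromeric genes, the 5 highest Hap2-GFP genes without Arp5-3HA, the isolated gene with the widest peak of each list and other RNA polymerase III genes. The dimers besides the highest locus and the copies set beside a named gene were chosen after their values were seen. The members, lists and tests were chosen with earlier results of these data known. Python 3.11.15, numpy 2.4.6, scipy 1.17.1 and matplotlib 3.10.9 were used.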

Additional observations from a re-analysis of the deposited data

Results flagged for a closer look

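Peaks on a sequence named MTR, which no comparison above uses, numbered 4 and 5 in the Hap2-GFP lists. The Arp5-3HA lists held 1 and 0, and the difference was not tested.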

How the results depend on the processing

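The sign of each difference between Hap2-GFP and Arp5-3HA (share of tRNA genes, summit position, width and percentile) was kept under every alternative run, and leaving out 1 list in turn gave 10.5 to 15.8 points for the share. With the 1000 highest peaks of each list the difference in share was 24.3 points, against 13.2 with all peaks. With these 1000 peaks, genes in both Arp5-3HA lists fell to 45.03%, against 74.3% with all peaks, and those in both Hap2-GFP lists stood at 77.8%. Shares of all genes at this limit are not given here, so these values are not read as particular to tRNA genes. Taking the replicate number as a block gave the same 13.2 points and a sign-flip p of 0.50, the smallest that 2 pairs can give. The deviations of same-numbered lists over all genes correlated at 0.14. With 2 pairs this correlation cannot decide whether the numbers pair the samples. Summits lay closer between lists of the same number than between lists of the same protein, as given above. Within 5000 bp, clustered minus isolated genes gave -5.92 points for Hap2-GFP (-2.65 within 1000 bp) and 0.71 for Arp5-3HA (13.1 within 1000 bp). In single lists this was -1.98 to 1.19 for Hap2-GFP and 3.70 to 12.0 for Arp5-3HA. Centromeric minus arm genes for Hap2-GFP gave -10.6 points, -8.98 with 25 kb on each side and -2.21 with outer genes only, which was tried only once the data had been seen. In single Hap2-GFP lists it gave -6.52 to -5.30. For Arp5-3HA it gave -6.84 points, -4.22 with 25 kb, -7.00 with outer genes only and -9.75 to -2.38 in single lists. The cause of these changes was not tested. Without read depth, a gene without a peak cannot be read as unbound.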
